A study of Mus musculus with 18 samples.

Results

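AMPA receptors are the ligand-gated ion channels that carry most of the fast excitatory current at glutamate synapses, and the 10 genes described here encode their pore-forming subunits (Gria1, Gria2, Gria3 and Gria4) and 6 proteins that travel with them: the TARPs Cacng2, Cacng3 and Cacng8, the cornichon homologues Cnih2 and Cnih3, and Shisa9. They were taken by symbol, with no measured value in the rule, and are 10 of the 55421 genes of a count table from mouse striatum. The 18 mice were 12 to 14 months old on a C57BL/6 background and came in 4 genotypes: 5 wild types (WT), 5 zQ175, 3 CK2a'(+/-) and 5 zQ175:CK2a'(+/-). zQ175 is a knock-in model of Huntington's disease in which the mutant huntingtin is full length and made wherever the endogenous gene is active. CK2a'(+/-) mice lack 1 allele of Csnk2a2, the gene of the catalytic kinase subunit CK2α′, in every cell, and came from a line with 129/SvEv in its history; zQ175:CK2a'(+/-) mice carry both changes. Each library was made from the dissected striatum of 1 mouse, a mixture of all its cells.

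An AMPA receptor is a tetramer, and its subunit mix sets its properties. GluA2, made from Gria2, is edited in its RNA by Adarb1 so that a glutamine codon of the pore is read as arginine, which makes channels that contain it nearly impermeable to calcium. TARPs bring receptors to the surface, anchor them at the postsynaptic density and slow their closing, cornichons help them leave the endoplasmic reticulum and slow their closing further, and Shisa9 (CKAMP44) changes the speed of desensitization and of recovery. Striatal projection neurons receive their glutamate from cortex and thalamus, and these synapses are altered in Huntington's disease models.

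The codon that is edited in Gria2 is shown first, with the matching codons of the other subunits. Each line below gives 48 bases of the coding strand around the codon, from the GRCm38 genome and its GENCODE transcripts, 5′ to 3′, with the glutamine codon in capitals.

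Gria1, chr11:57243067-57243114, plus strand, exon 11 of 16: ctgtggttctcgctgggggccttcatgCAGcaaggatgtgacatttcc
Gria2, chr3:80706893-80706940, minus strand, exon 11 of 16: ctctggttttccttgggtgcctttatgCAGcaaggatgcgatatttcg
Gria3, chrX:41610238-41610285, plus strand, exon 11 of 16: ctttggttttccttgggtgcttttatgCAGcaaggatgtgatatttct
Gria4, chr9:4464119-4464166, minus strand, exon 12 of 17: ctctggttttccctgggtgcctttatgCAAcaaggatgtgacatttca

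The genome spelled glutamine at this codon in all 4 genes, with CAG in Gria1, Gria2 and Gria3 and CAA in Gria4. Over the 48 bases Gria2 and Gria3 had the most letters in common, with 44 the same, and Gria1 shared 39 with either of them. The counts analysed below tell how many reads fell on a gene. They hold no reading of the edited base.

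The libraries held between 13612381 and 22702547 counts (median 18005044), and apart from Cacng8 and Cnih3 a receptor gene had between 697 (Cacng2) and 17228 (Gria2) reads in a mouse. Csnk2a2 served as the check of the genotype labels. It was read at 29.4 to 35.0 CPM (reads of a gene relative to the library total, scaled by edgeR's TMM factors here and throughout) in WT and 32.0 to 37.5 in zQ175 mice, against 14.7 to 18.02 in CK2a'(+/-) and 15.8 to 19.9 in zQ175:CK2a'(+/-) mice. Of the 12 marker genes of striatal projection neurons, the main cell type of the tissue, all had reads, and their summed level was 3160 to 7628 CPM in WT and 1767 to 3500 CPM in zQ175 mice. Markers of neighbouring regions were also read, and unevenly. The summed level of 8 cortical excitatory neuron genes reached 302 and 390.1 CPM in zQ175 replicates 1 and 5. It was 101 to 174 in WT and 87.9 to 215 over all mice but these 2. That of 6 thalamic genes reached 1371 CPM in zQ175 replicate 1, against 122 to 720 elsewhere. That of 7 hippocampal genes was 116 and 171 CPM in zQ175 replicates 1 and 5, against 57.7 to 80.6 in WT and 41.6 to 94.4 over all mice but these 2. zQ175 replicates 1 and 5 also set the ends of the range for several receptor genes, so values without them are given where they matter. The sum of 4 choroid plexus genes was 2065 and 1715 CPM in WT replicates 1 and 3, 969.7 in CK2a'(+/-) replicate 1 and 3064 in zQ175:CK2a'(+/-) replicate 2, against 11.3 to 21.5 in the other 14 mice. Without these 4 libraries, a choice made after the data were seen, 0 of the 9 tested receptor genes passed in any comparison.

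Per unit of gene length (RPKM, scaled CPM per kilobase of the deposited length), Gria1 stood highest with a mean of 61.2 over the 18 mice, followed by Cnih2 with 47.9 and Gria2 with 46.4. Cacng3 had 21.7, Gria3 18.2, Gria4 16.5, Shisa9 15.5 and Cacng2 12.4 RPKM, and Cnih3 was lowest of the genes with reads, with 3.59. Gria1 exceeded Cnih2 and Shisa9 exceeded Cacng2 in 18 of 18 mice, although their ranges over mice overlapped. Neighbours within 2 stretches of the order could not be separated: Cnih2 was above Gria2 in 10 of 18 mice, and along Cacng3, Gria3, Gria4 and Shisa9 each gene was above the next in 13 to 15 of 18. Only between Gria2 and Cacng3, and between Cacng2 and Cnih3, did the ranges lie apart. The order among the first 7 depended on the length used, since the deposited length merges every annotated exon and is 15548 bases for Gria2 against 10371 for its main transcript. With main transcript lengths Gria2 (69.5 RPKM) and Gria1 (68.5) came first and Gria3 moved up to rank 4 with 34.6.

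Within the 4 subunits, Gria1 made up 42.8% ± 3.14 (SD, n = 18 mice) of their summed RPKM, Gria2 32.5% ± 1.98, Gria3 12.9% ± 1.22 and Gria4 11.9% ± 2.62. The ranges of each share overlapped between the genotypes, and the mean Gria2 share was 32.7% in WT, 31.7% in zQ175, 33.5% in CK2a'(+/-) and 32.3% in zQ175:CK2a'(+/-) mice. The Gria4 share ran from 6.74% in zQ175 replicate 5 to 17.7% in zQ175 replicate 1, so both ends of it fell within 1 genotype. With main transcript lengths the shares were 35.5% for Gria1, 36.1% for Gria2, 18.1% for Gria3 and 10.4% for Gria4, which turns the order of Gria1 and Gria2.

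**Figure D1:**
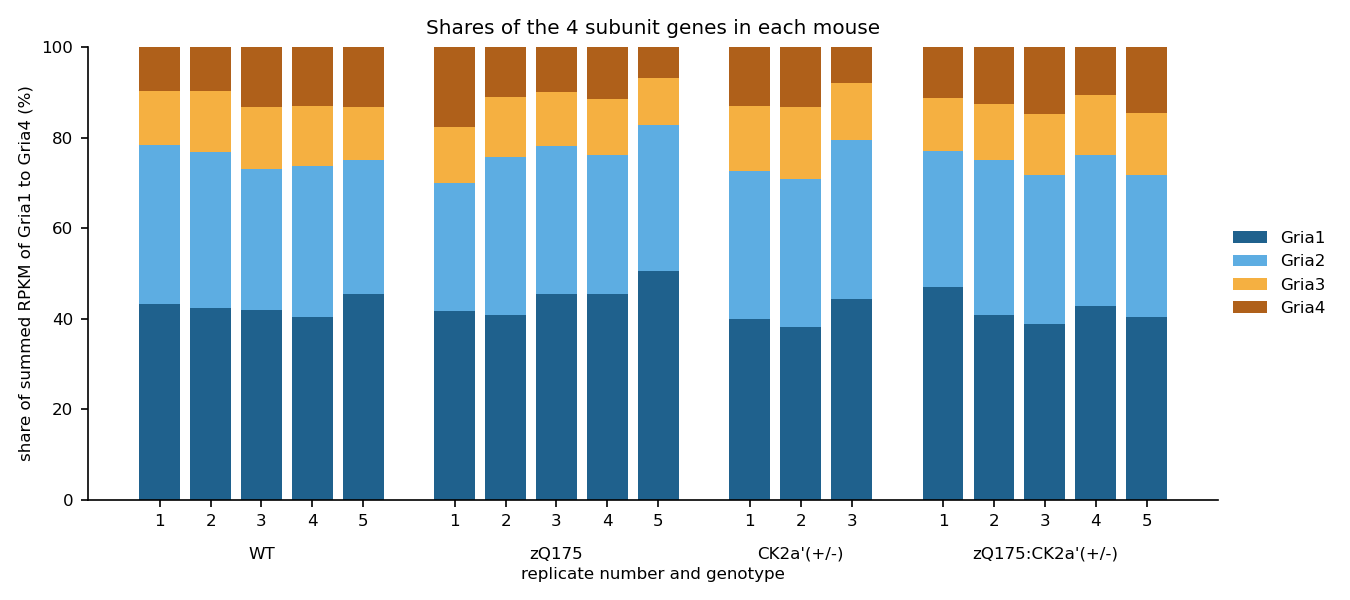
Share of each AMPA receptor subunit gene in the summed level per length (RPKM) of Gria1 to Gria4, in percent, as 1 stacked bar per mouse grouped by genotype. Gria1 and Gria2 fill most of every bar, and the Gria4 segment is smallest and largest in zQ175 replicates 5 and 1.

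Cacng8, the TARP γ-8 gene, had 1 read in all 18 libraries, in zQ175 replicate 2, and was too low for the tests. That count cannot be read as its level in striatum. Some other genes near it on chromosome 7 were without or almost without reads over all libraries: Myadm and Cacng6 had 0 reads and Cacng7, another TARP gene, had 3. The authors discarded duplicated mappings and reads with low mapping quality before counting, and whether that removed reads of these genes was not tested. No value of Cacng8 or Cacng7 is compared between genotypes here.

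The 9 other genes were tested in 1 edgeR quasi-likelihood fit of 20914 genes over all 18 mice, at a false discovery rate (FDR) of 0.1 over all genes. None of the 9 passed in any of the 5 comparisons. For zQ175 against WT, where 1.10% of all genes passed, 1 of the 9 (Cnih3) had an unadjusted p under 0.05, against 13.9% of all genes, and 0 of 9 had levels that did not overlap between the genotypes, against 2.44%. For zQ175:CK2a'(+/-) against zQ175, 0.0143% of all genes passed, 1 of the 9 (Cnih3 again) was under 0.05, against 6.27%, and 0 were without overlap, against 1.14%. For zQ175:CK2a'(+/-) against WT the background was 0.0143% passing, 9.13% under 0.05 and 1.84% without overlap, for CK2a'(+/-) against WT it was 0.0143%, 4.48% and 3.20%, and in neither did a receptor gene meet any of the 3 marks. For the interaction, which asks whether the difference made by the lost Csnk2a2 allele is the same with and without the zQ175 allele, 0.00478% of genes passed and 5.39% were under 0.05, and again 0 of 9 were. DESeq2 also called 0 of the 9 in every comparison. The comparisons share mice, so they are not separate evidence.

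The spread of the receptor genes between genotypes was small. The median size of the log2 fold change over the 9 genes was 0.05 for zQ175 against WT, where it was 0.19 over all genes tested, and 0.11 for zQ175:CK2a'(+/-) against zQ175, where it was 0.15 over all genes. Their median standard error in both was 0.13, against 0.21 over all genes. For 7 of the 9 genes (all but Cacng3 and Cnih3) the 95% interval of the zQ175 against WT difference lay within 0.5 log2 units of 0. In bulk tissue, fewer cells of a type and less RNA per cell cannot be told apart, and a level that holds over the whole striatum may still differ within a cell type.

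**Figure D2:**
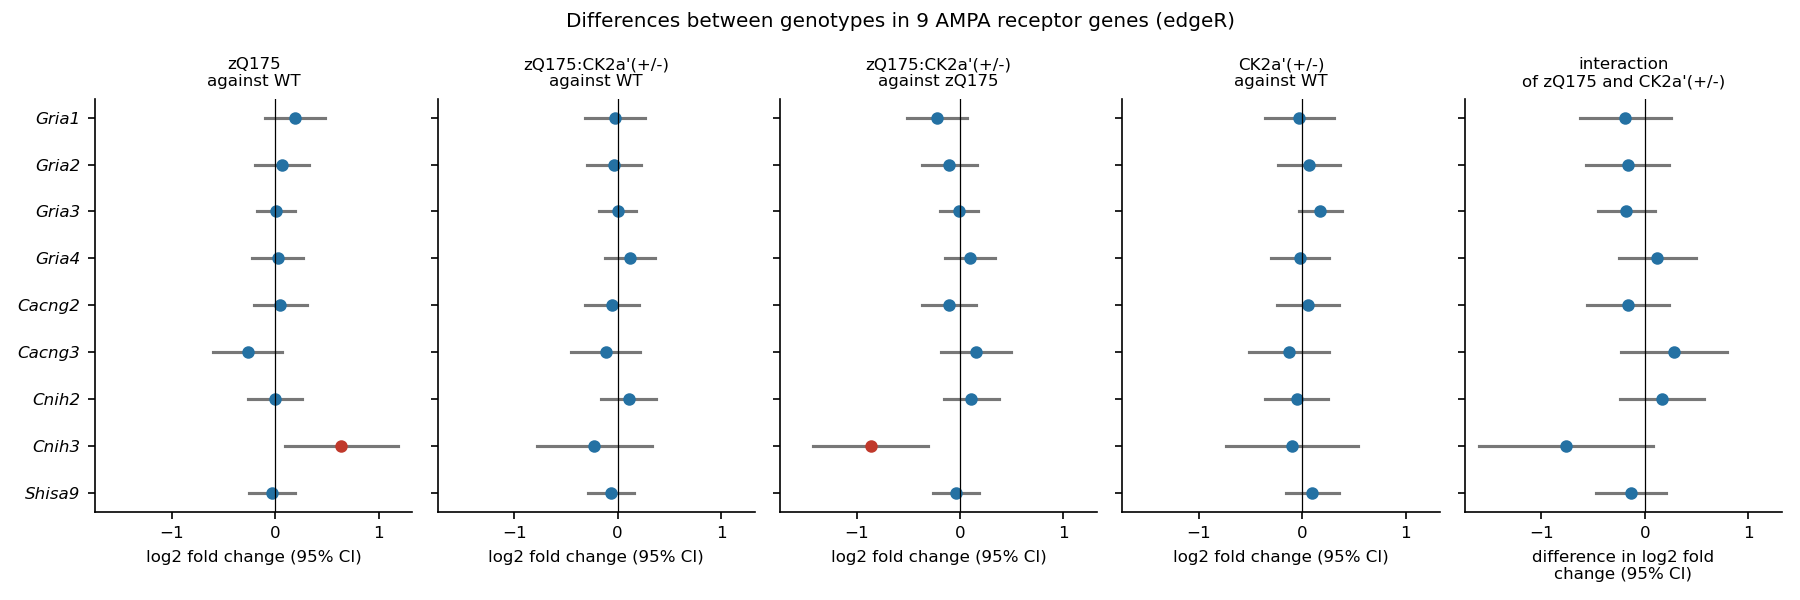
Log2 fold change of each of the 9 tested genes in the 5 comparisons, with 95% confidence intervals from the edgeR fit; a red point marks an unadjusted p under 0.05. The intervals of all genes but Cnih3 cross 0 in every panel, and Cnih3 lies at 0.64 for zQ175 against WT and at -0.86 for zQ175:CK2a'(+/-) against zQ175.

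Gria1 encodes GluA1, the subunit whose insertion is best known from synaptic plasticity. It was read at 381, 412, 312, 319 and 371 CPM in WT replicates 1 to 5 and at 300.2, 366, 421, 398 and 565 CPM in zQ175. The zQ175 mice thus held both the lowest and the highest value of all 18, and the WT mice lay between them. In CK2a'(+/-) Gria1 was at 320.0, 308 and 429 CPM and in zQ175:CK2a'(+/-) at 431, 328, 304, 378 and 319.9 CPM. The log2 fold change was 0.19 for zQ175 against WT (95% interval -0.10 to 0.48; edgeR adjusted p = 0.585) and -0.22 for zQ175:CK2a'(+/-) against zQ175 (-0.51 to 0.07; adjusted p = 0.859). Leaving out 1 mouse at a time moved the first between 0.046 and 0.28 and the second between -0.31 and -0.073, and without zQ175 replicates 1 and 5 they were 0.14 and -0.16. All 4 genotypes overlapped.

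Gria2, the gene of the subunit that closes the pore to calcium, had the most reads. Its level was 796, 860.1, 593, 677 and 626 CPM in WT and 523, 802, 779, 692 and 926 CPM in zQ175. Again zQ175 replicate 1 was the lowest and replicate 5 the highest of all 18 mice. It was 677, 678 and 873 CPM in CK2a'(+/-) and 709, 709.7, 660.5, 753 and 636 CPM in zQ175:CK2a'(+/-), where the coefficient of variation was 6.67% against 20.1% in zQ175. The log2 fold change was 0.07 for zQ175 against WT (-0.20 to 0.33) and -0.10 for zQ175:CK2a'(+/-) against zQ175 (-0.37 to 0.16), and without zQ175 replicates 1 and 5 they were 0.09 and -0.13. Leaving out 1 mouse at a time moved the second between -0.20 and -0.0078.

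Gria3, on the X chromosome, varied least of the 4, with a coefficient of variation of 9.74% over the 18 mice. It ran from 155 to 214 CPM in WT, 145 to 193 in zQ175, 186 to 209 in CK2a'(+/-) and 164 to 188 in zQ175:CK2a'(+/-) mice. Its log2 fold change was 0.01 for zQ175 against WT (-0.17 to 0.19), and the intervals for CK2a'(+/-) against WT, 0.17 (-0.04 to 0.38; edgeR adjusted p = 0.999), and for the interaction, -0.18 (-0.46 to 0.09; adjusted p = 0.936), both include 0.

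Gria4, which is used by interneurons and by thalamic neurons, gave the mirror image of Gria2. In WT it was at 89.2, 97.7, 102, 107 and 113 CPM and in zQ175 at 133, 103, 97.0, 105 and 78.5 CPM. Here zQ175 replicate 1 was the highest and replicate 5 the lowest of all mice. In CK2a'(+/-) it was at 109.5, 111 and 79.3 CPM and in zQ175:CK2a'(+/-) at 107, 106, 120.2, 98.1 and 121 CPM. The log2 fold change was 0.02 for zQ175 against WT (-0.22 to 0.27) and 0.10 for zQ175:CK2a'(+/-) against zQ175 (-0.15 to 0.34). Leaving out 1 mouse at a time moved the second between 0.015 and 0.21. The genotypes overlapped throughout.

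**Figure D3:**
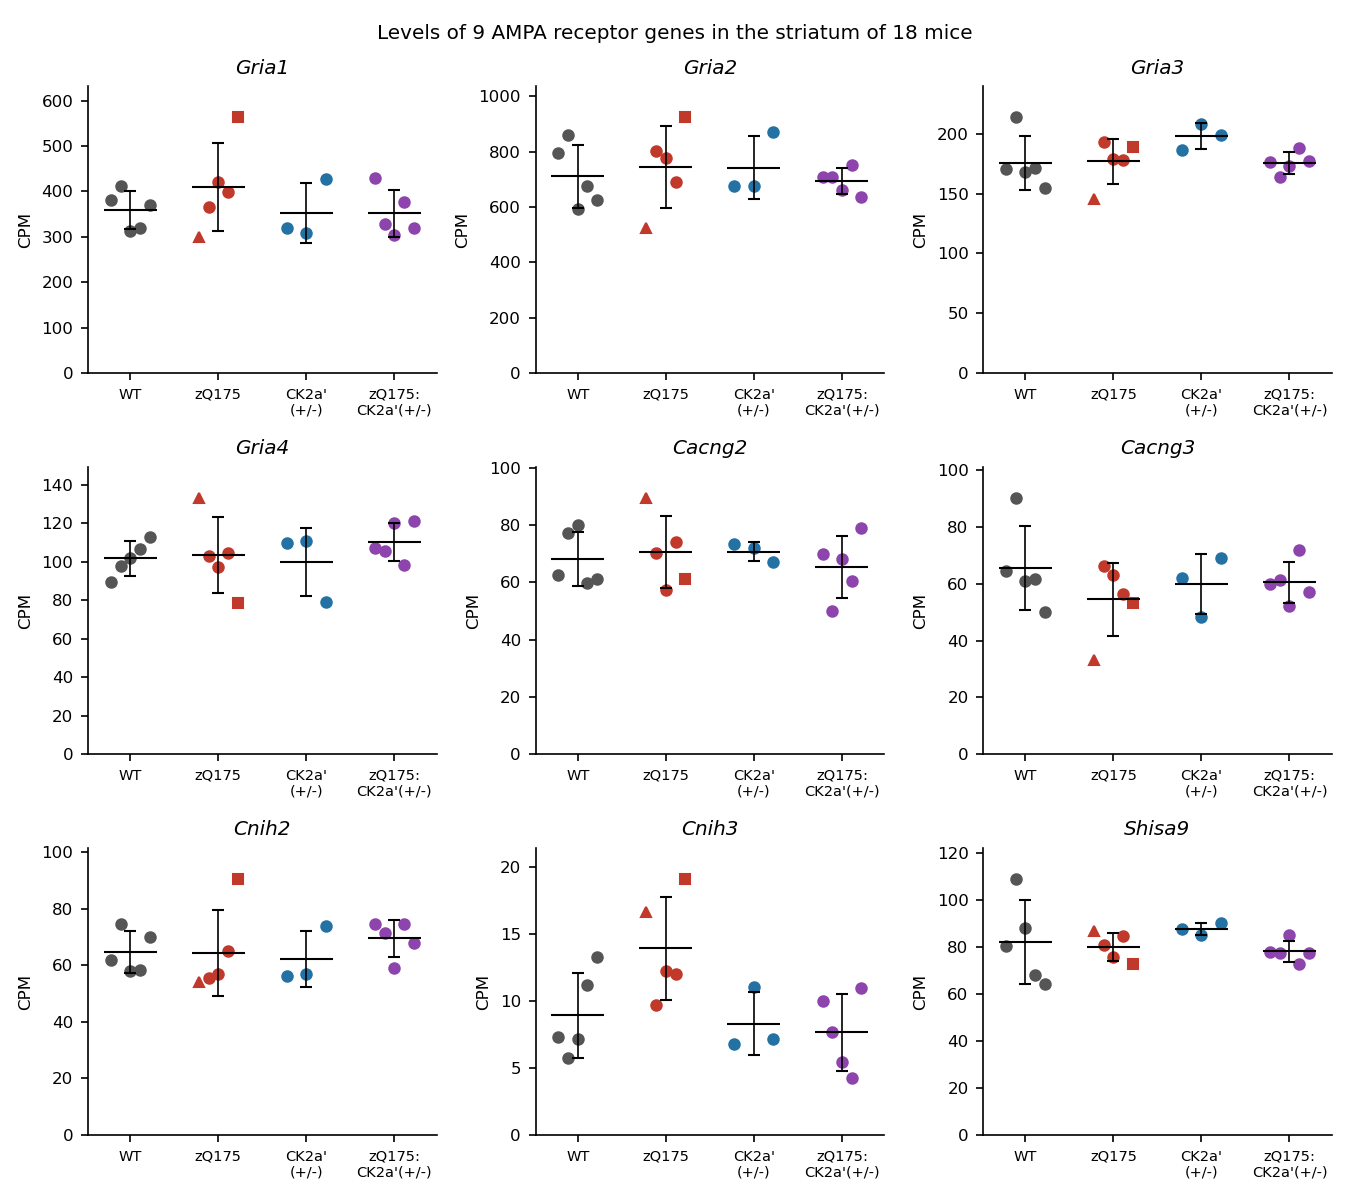
Scaled CPM of the 9 genes with reads in each mouse by genotype, with the mean (line) and SD (bars); triangles mark zQ175 replicate 1 and squares zQ175 replicate 5. The genotypes overlap for every gene, and these 2 mice lie at opposite ends for Gria1, Gria2, Gria4 and Cnih2.

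The balance of subunits was tested as a log2 ratio of levels per deposited length within each mouse; the length used sets the level and sign of a ratio but not its difference between genotypes. Gria1 to Gria2 averaged 0.38 ± 0.14 (SD, n = 5) in WT, 0.50 ± 0.16 in zQ175, 0.28 ± 0.06 (n = 3) in CK2a'(+/-) and 0.38 ± 0.16 in zQ175:CK2a'(+/-). Gria4 to Gria2 averaged -1.49 ± 0.33 in WT and -1.54 ± 0.58 in zQ175, where the 5 mice spread from -2.26 to -0.67. Over the 12 comparisons of 3 ratios (Gria1, Gria3 and Gria4 to Gria2) the lowest p of the two-sided exact permutation test was 0.238, for Gria1 to Gria2 in zQ175:CK2a'(+/-) against zQ175, which is 0.857 after Benjamini-Hochberg adjustment. The smallest p this test can give is 0.00794 for 5 against 5 mice and 0.0179 for 3 against 5, so either design could have passed 0.05 before adjustment. After adjustment over the 12 comparisons, a lone difference could not have passed 0.05 even at these smallest values.

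Among the TARP genes, Cacng2 encodes stargazin, the first known of them, and Cacng3 encodes γ-3. Cacng2 ran from 59.9 to 79.9 CPM in WT, 57.3 to 89.6 in zQ175, 67.0 to 73.4 in CK2a'(+/-) and 50.03 to 79.0 in zQ175:CK2a'(+/-), with a log2 fold change of 0.05 for zQ175 against WT (-0.21 to 0.31). It shares 323 exon bases with A730060N03Rik on the other strand, and the sources used here do not give the strand setting of the counting. Cacng3 was at 64.5, 90.4, 61.1, 61.7 and 50.2 CPM in WT and at 33.2, 66.3, 63.3, 56.5 and 53.3 CPM in zQ175. The lowest of these, zQ175 replicate 1, was the lowest of all 18 mice, and the other 4 zQ175 mice lay within the WT range. The log2 fold change was -0.27 (-0.60 to 0.07; edgeR adjusted p = 0.490), and -0.08 without zQ175 replicates 1 and 5.

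Of the cornichon genes, Cnih2 was the higher by far. It ran from 58.0 to 74.7 CPM in WT, 54.0 to 90.7 in zQ175, 56.3 to 73.8 in CK2a'(+/-) and 59.0 to 74.8 in zQ175:CK2a'(+/-), and its log2 fold change was 0.11 for zQ175:CK2a'(+/-) against zQ175 (-0.15 to 0.37). As for Gria1 and Gria2, zQ175 replicates 1 and 5 were the lowest and the highest mouse, and without them this value was 0.23 (edgeR adjusted p = 0.999).

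Cnih3 was the gene of the set that varied most. It was at 7.33, 5.75, 7.15, 11.2 and 13.3 CPM in WT and at 16.7, 9.73, 12.2, 12.0 and 19.1 CPM in zQ175. All 5 zQ175 mice were above 3 of the 5 WT mice, and 2 of them were above every WT mouse. It was at 6.82, 11.0 and 7.14 CPM in CK2a'(+/-) and at 10.02, 7.68, 5.45, 4.25 and 11.0 CPM in zQ175:CK2a'(+/-). There 4 of the 5 zQ175 values lay above the highest double mutant, and the other, replicate 2, lay among them. The log2 fold change was 0.64 ± 0.26 (SE) for zQ175 against WT (95% interval 0.09 to 1.19; adjusted p = 0.285 by edgeR) and -0.86 ± 0.27 for zQ175:CK2a'(+/-) against zQ175 (-1.42 to -0.31; adjusted p = 0.585). For zQ175:CK2a'(+/-) against WT it was -0.23 (-0.78 to 0.33), and for the interaction -0.76 (-1.60 to 0.08; adjusted p = 0.916). Leaving out 1 mouse at a time moved these between -0.39 and -0.038 and between -0.95 and -0.50, the ends nearest 0 being those without WT replicate 5 and without CK2a'(+/-) replicate 2, and without zQ175 replicates 1 and 5 the interaction was -0.46. No alternative gave an adjusted p under 0.1: it ran from 0.174 to 0.744 for zQ175 against WT and from 0.161 to 0.999 for zQ175:CK2a'(+/-) against zQ175. With the level of Xist, which is high in females, as covariate, the log2 fold changes of Cnih3 in the same order were 0.53 and -0.76. Their unadjusted p by edgeR were 0.060 and 0.0096, against 0.024 and 0.0039 in the main fit.

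The Cnih3 level moved with markers of cortical excitatory neurons. Over the 18 mice its log2 level correlated with the summed level of the 8 markers with a Pearson r of 0.81 (permutation p = 5e-05, adjusted p = 0.00248 over 99 relations) and a Spearman rho of 0.78 (permutation p = 0.00025, adjusted p = 0.0191), and r was 0.67 without the 2 mice farthest from the median marker sum. All 8 markers had reads in these libraries. For zQ175 against WT all 8 were higher, the median being 1.07 on the log2 scale, and 1 of them, Tbr1, passed at 1.27 (edgeR adjusted p = 0.0902); for zQ175:CK2a'(+/-) against zQ175 all 8 were lower, with a median of -0.72 and 0 passing. Hippocampal markers gave an r of 0.66 with Cnih3 (permutation adjusted p = 0.0215) and a rho of 0.54 (permutation adjusted p = 0.162). Of these, 5 of 5 tested were higher for zQ175 against WT (median 0.77), with C1ql2 passing at 2.97 (edgeR adjusted p = 0.0588), and 5 of 5 were lower for zQ175:CK2a'(+/-) against zQ175 (median -0.86), with 0 passing. Thalamic markers were 6 of 6 higher in the first comparison (median 0.91) and 6 of 6 lower in the second (median -1.18), with 0 passing in either. Their r with Cnih3 was 0.39 (permutation adjusted p = 0.423). Leaving out zQ175 replicates 1 and 5, the mice with the highest cortical and hippocampal marker sums, brought the log2 fold change of Cnih3 to 0.34 (adjusted p = 0.744 by edgeR) and to -0.56 (adjusted p = 0.999). Without the 4 libraries rich in choroid plexus markers these were 0.47 (adjusted p = 0.737 by edgeR) and -0.87 (adjusted p = 0.968). The part of these markers in the Cnih3 differences was not tested.

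Shisa9 had a coefficient of variation of 21.8% in WT and 2.95% to 7.37% in the other genotypes. It ran from 64.5 to 109 CPM in WT, 72.8 to 87.0 in zQ175, 85.2 to 90.4 in CK2a'(+/-) and 72.9 to 85.4 in zQ175:CK2a'(+/-), so that each mutant range lay inside that of WT. Its log2 fold change was -0.03 for zQ175 against WT (-0.25 to 0.19) and -0.04 for zQ175:CK2a'(+/-) against zQ175 (-0.26 to 0.19).

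Some of these genes moved with each other from mouse to mouse, in the same or in opposite directions. Of the 36 pairs, 8 had adjusted p under 0.05 for both Pearson's r and Spearman's rho over the 18 mice, 5 of them positive and 3 negative. The closest was an opposite one: Gria2 and Gria4 had r = -0.87 (permutation p = 1e-05, the smallest that 100000 resamples can give; adjusted p = 0.00036), rho = -0.83 (permutation p = 4e-05, adjusted p = 0.00144), and r = -0.76 without the 2 mice farthest from the median of Gria2. Taken within genotypes, as deviations from each genotype's mean, r was -0.88. Gria1 and Gria2 went together (r = 0.79, permutation p = 0.00014, adjusted p = 0.00168; rho = 0.78, permutation p = 0.00022, adjusted p = 0.00396; r = 0.70 without 2 mice), and Gria1 went against Gria4 (r = -0.78, permutation p = 0.00011, adjusted p = 0.00168; rho = -0.73, permutation p = 0.0009, adjusted p = 0.0108; r = -0.64 without 2 mice). Gria1 with Cnih2, Gria2 with Gria3, Gria2 with Cacng3 and Cacng2 with Shisa9 were the other positive pairs, with r of 0.73, 0.70, 0.68 and 0.59, and Cacng3 with Cnih3 the other negative pair, with r of -0.64. Their permutation p adjusted over the 36 pairs ran from 0.00468 to 0.0431 for r and from 0.0192 to 0.0380 for rho. An r of at least 0.7 in size was found in 5 of the 36 pairs, or 13.9%, and in 0.981% of all pairs of the 11795 genes with a mean of at least 5 CPM, many of which have fewer reads and so more counting noise. Levels of 2 genes in 1 library share its depth, its dissection and its scaling.

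Levels of 4 of the genes also moved with thalamic markers. The summed level of 6 thalamic genes correlated with Gria4 at r = 0.74 (permutation p = 0.00039, adjusted p = 0.0125; rho = 0.69, permutation p = 0.00191, adjusted p = 0.0315; r = 0.67 without 2 mice), and with Gria2 at r = -0.81 (permutation p = 3e-05, adjusted p = 0.00248; rho = -0.74, permutation p = 0.00058, adjusted p = 0.0191; r = -0.75 without 2 mice). With Gria1 it was -0.68 (permutation adjusted p = 0.0215) and with Cnih2 -0.74 (0.0125). These were 4 of 7 relations, among the 99 of 9 genes with 11 marker lists, that had adjusted p under 0.05 by both measures. The others were Cnih3 with cortical markers, given above, Cnih3 with striatal projection neuron markers (r = -0.62, permutation adjusted p = 0.0463) and Cacng3 with cortical markers (r = -0.65, permutation adjusted p = 0.0372). An r of at least 0.7 in size was found in 8.08% of the 99 relations and in 2.41% of those of all 11795 genes with the same lists. The part of tissue makeup in the correlations among receptor genes was not tested.

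**Figure D4:**
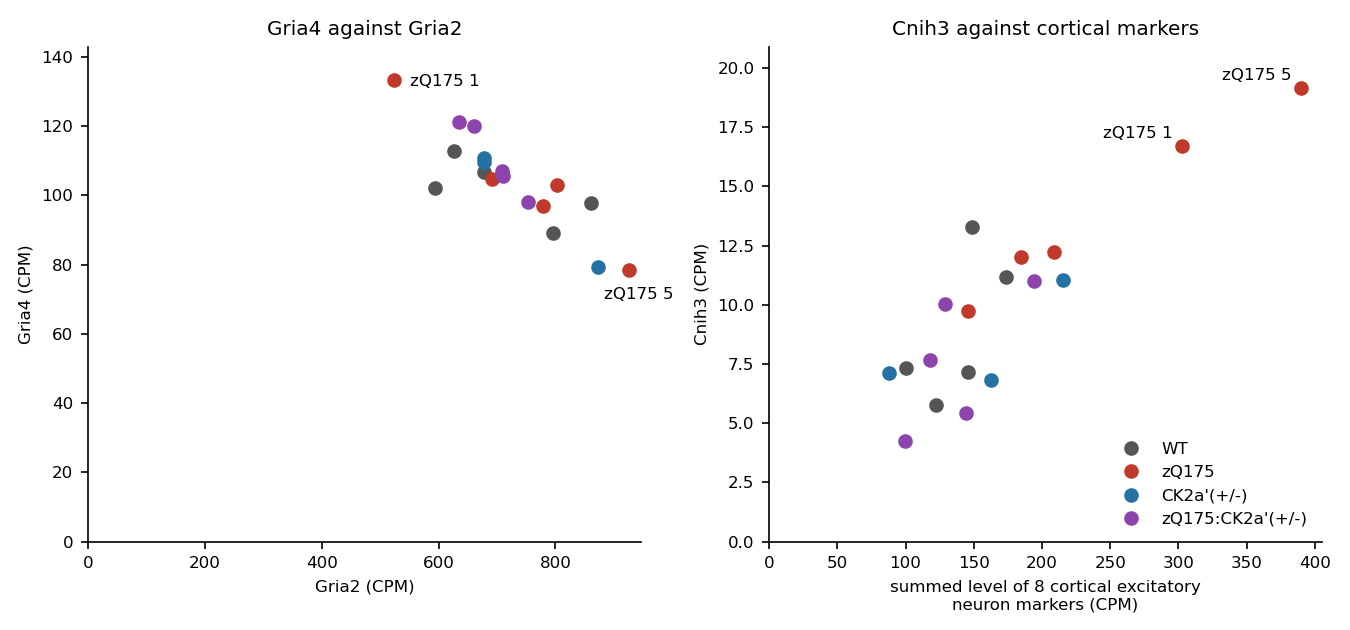
Gria4 against Gria2, and Cnih3 against the summed level of 8 cortical excitatory neuron markers, both in scaled CPM on linear axes from 0, with 1 point per mouse and a colour per genotype. Gria4 falls as Gria2 rises (r = -0.87) with zQ175 replicates 1 and 5 at the 2 ends, and Cnih3 rises with the marker sum (r = 0.81).

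The genes with the most similar pattern over the 18 mice, among 11795 genes with a mean of at least 5 CPM, gave each receptor gene its own company. They are given as a description, since they were picked for their r. Gria2 went closest with Cnksr2, a scaffold protein gene of the postsynaptic density (r = 0.95), Plppr4 (0.95) and Zfp831 (0.91), and Gria4 with Fgf1 (0.93), Dnm3, a dynamin gene (0.90), and Plxdc2 (0.89). Gria1 was nearest to Dkk3 (0.88), Dph6 (0.87) and Mpped1 (0.85), and Gria3 to the nuclear long noncoding RNA Malat1 (0.92), Plcb1 (0.89) and the calcium release channel gene Ryr3 (0.88). Cacng3 was nearest to Dclk3 (0.94), Ccdc88c (0.92) and the retinoic acid receptor gene Rarb (0.90), and Shisa9 to Clvs1 (0.91), Zfp644 (0.90) and Tcf20 (0.89). Cacng2 was nearest to Pacsin1, an endocytic adaptor gene (0.84), and Efr3b (0.81), and Cnih2 to Gal3st3 (0.83) and Mpp3 (0.80). Cnih3 was nearest to the neuropeptide gene Cck (0.81), the zinc transporter gene Slc39a6 (0.80) and the calcium sensor gene Ncald (0.80).

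Other genes of AMPA receptor assembly gave 1 call. Of 16 tested auxiliary and assembly proteins outside the 10, 9 were higher and 7 lower in zQ175 than in WT, the median being 0.10 on the log2 scale, where it was 0.00 over all genes. Only Gsg1l, whose product binds the receptor and dampens its currents, passed, and it was lower. It was at 71.5, 96.6, 60.7, 54.1 and 50.3 CPM in WT and at 34.4, 50.2, 45.6, 47.8 and 45.2 CPM in zQ175. Every zQ175 mouse lay below every WT mouse, if narrowly between zQ175 replicate 2 and WT replicate 5. It was at 77.1, 84.7 and 97.0 CPM in CK2a'(+/-) and at 54.7, 49.5, 47.3, 54.7 and 50.4 CPM in zQ175:CK2a'(+/-). The log2 fold change for zQ175 against WT was -0.58 ± 0.14 (SE; edgeR adjusted p = 0.0765), and for zQ175:CK2a'(+/-) against WT it was -0.38 (-0.67 to -0.09; adjusted p = 0.413). The call was lost without WT replicate 1 (adjusted p = 0.154) or 3 (0.164), or zQ175 replicate 1 (0.125), 3 (0.108) or 5 (0.125), and without zQ175 replicates 1 and 5 together (-0.48, adjusted p = 0.270). It was also lost with a replicate block (adjusted p = 0.114 by edgeR), in a fit of only these 2 genotypes (0.197) and without the 4 libraries rich in choroid plexus markers (-0.59, adjusted p = 0.496). The difference itself stayed negative under every alternative run, between -0.67 and -0.42, and was -0.57 without WT replicate 1 and -0.61 without WT replicate 3, fits in which the calls over all genes fell from 230 to 10 and 0. The adjusted p was lower by DESeq2 (0.00974) and by edgeR with no filter on low counts (0.00723). Markers of striatal projection neurons were lower in zQ175 as well, 12 of 12 with 4 passing and a median of -0.67, as were those of oligodendrocytes (6 of 6, 4 passing, median -0.50) and microglia (7 of 7, 3 passing, median -0.27). With 0 passing, 8 of 9 striatal interneuron markers (median -0.35), 7 of 7 astrocyte markers (median -0.13) and 4 of 4 choroid plexus markers (median -3.22) had lower levels too. The part of these cell types in this value was not tested.

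Proteins that anchor or move AMPA receptors at the synapse, 15 genes, gave 0 calls for zQ175 against WT, with 7 higher, 8 lower and a median of -0.03. Of them 4 had an unadjusted p under 0.05, where 13.9% of all genes did, namely Nptx1, Nptxr, Gripap1 and Camk2b. The pentraxin gene Nptx1, whose secreted product clusters AMPA receptors, had a log2 fold change of 0.93 (edgeR adjusted p = 0.248), and its receptor partner Nptxr 0.72 (adjusted p = 0.165). In both, zQ175 replicate 5 stood far above the rest, with 144 CPM for Nptx1 where the other 17 mice had 16.4 to 41.4, and 206 CPM for Nptxr where they had 46.5 to 115. The second highest for Nptxr was zQ175 replicate 1. Gripap1, whose product binds GRIP1 and takes part in receptor recycling, was at -0.26 (edgeR adjusted p = 0.237), and Camk2b, the gene of the beta subunit of the kinase CaMKII, at -0.25 (adjusted p = 0.354). The 3 RNA editing enzymes were higher with 0 passing (median 0.26). Adarb1, which edits the Gria2 codon printed above, was at 153 to 282 CPM in WT and 148 to 476 in zQ175, with the highest value in replicate 1, and its log2 fold change was 0.26 (-0.34 to 0.86).

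The other ionotropic glutamate receptors gave no call either. For zQ175 against WT, 4 of 7 NMDA receptor subunit genes were higher and 3 lower (median 0.07), and 2 of 5 kainate receptor subunit genes were higher and 3 lower (median -0.02), with 0 passing in both. In the other 4 comparisons 0 genes passed in any of these lists, and their medians lay between -0.66 and 0.34, both ends being those of the 3 editing enzymes.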

How the data were processed

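Total RNA of 18 striata was made into stranded libraries, pooled and sequenced on 1 NovaSeq lane. The authors trimmed reads (Trimmomatic), aligned them to GRCm38 (HISAT2 2.1.0), removed duplicates and low mapping quality, and deposited raw counts per gene (Subread 1.6.2); the strand setting of the counting is not given in the sources used here. Here, genes were tested with edgeR 4.0.16 in R 4.3.3 (quasi-likelihood test, TMM, filterByExpr, all genotypes in 1 fit, genotype as the only factor, Benjamini-Hochberg over 20914 genes, FDR 0.1). DESeq2 1.42.0, other normalization, no filter, only 2 genotypes, Xist as covariate, a robust fit, a replicate block and leaving out mice were alternatives. The scripts were tested on simulated data. Correlations used log2 CPM with a prior count of 2 and 100000 resamples. Replicates are separate mice per the labels, and they differed beyond counting noise. Sexes are not in the labels, and the study's methods give ratios that differ between genotypes. Xist, which is high in females, was low in some mice. These were WT replicate 1, zQ175 replicates 1, 3 and 5, CK2a'(+/-) replicates 1 and 2 and zQ175:CK2a'(+/-) replicate 5. They had 0.498 to 47.0 CPM and the others 990 to 1290. Taken as males and females, the mice give the study's ratios in every genotype, and zQ175 replicates 1 and 5 would both be male. The same replicate numbers did not deviate together (correlations -0.136 to 0.120). All 10 genes were named in every comparison, with the 3 genes of highest r each, some of which are not reported here. The rule for the 10 genes uses symbols alone, but the genes and lists were chosen with earlier results of these data known.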

Additional observations from a re-analysis of the deposited data

Results flagged for a closer look

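Gria3 in WT replicate 2 stood apart from its group, at 214 CPM where the other 4 WT mice had 155 to 171. The gap to the nearest mouse divided by the range of the group was above Dixon's critical value of 0.710 for 5 mice. It was the 1 mouse to do so among 36 sets of 5 values looked at (a gene or ratio in a genotype of 5 mice), and chance alone gives about 1 in 20 sets. Without it, the log2 fold change of Gria3 for CK2a'(+/-) against WT was 0.26 (adjusted p = 0.422 by edgeR), and the gene still did not pass.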

How the results depend on the processing

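The count of 0 receptor genes passing held under each alternative run, DESeq2 and an FDR of 0.05 included, in all 5 comparisons, except that the fit of only 2 genotypes gives no interaction. Signs of small differences were less stable. Without zQ175 replicates 1 and 5, a choice made after the data were seen, the log2 fold change for zQ175 against WT was -0.00093 for Gria4 and -0.017 for Cacng2, and that of Cacng3 for zQ175:CK2a'(+/-) against zQ175 was -0.035. Without the 4 libraries rich in choroid plexus markers, also chosen afterwards, values were -0.026 for Gria3 and -0.034 for Gria4 in zQ175 against WT, 0.069 for Cacng2 in zQ175:CK2a'(+/-) against WT, 0.015 for Gria3 in zQ175:CK2a'(+/-) against zQ175 and 0.0033 for Gria1 in CK2a'(+/-) against WT. With Xist as covariate Cnih2 was 0.0090 for zQ175 against WT. For zQ175:CK2a'(+/-) against WT, Gria3 was 0.0020 with DESeq2, 0.0018 with DESeq2's size factors, 0.0059 with the replicate block and 0.0017 without the 2 zQ175 mice. The replicate block, in which mice share a number but no known litter or day, gave 0.0065 for Gria1, 0.020 for Cnih2, 0.081 for Cnih3 and 0.045 for the Gria4 to Gria2 ratio in CK2a'(+/-) against WT, changed no call of the 9 genes, and ended the call of Gsg1l (-0.56, adjusted p = 0.114), as did fitting only the 2 genotypes (-0.58, adjusted p = 0.197) and leaving out the 4 libraries (-0.59, adjusted p = 0.496). The cause was not tested. Leaving out 1 mouse at a time gave ranges that cross 0. For zQ175 against WT they were -0.025 to 0.17 for Gria2, -0.037 to 0.077 for Gria3, -0.087 to 0.10 for Gria4, -0.051 to 0.12 for Cacng2, -0.16 to 0.054 for Cnih2 and -0.11 to 0.080 for Shisa9, while Gsg1l stayed between -0.67 and -0.42. For zQ175:CK2a'(+/-) against WT they were -0.11 to 0.021 for Gria1, -0.088 to 0.030 for Gria2, -0.043 to 0.067 for Gria3, -0.13 to 0.026 for Cacng2, -0.20 to 0.014 for Cacng3 and -0.14 to 0.043 for Shisa9, and for zQ175:CK2a'(+/-) against zQ175 -0.070 to 0.023 for Gria3. Ranges that kept their sign but moved by over 1.5 times included -0.36 to -0.13 for Cacng3 in zQ175 against WT, and -0.18 to -0.0029 for Cacng2, 0.055 to 0.27 for Cnih2 and 0.018 to 0.23 for Cacng3 in zQ175:CK2a'(+/-) against zQ175. For CK2a'(+/-) against WT the ranges that cross 0 were -0.19 to 0.060 for Gria1, -0.068 to 0.14 for Gria2, -0.11 to 0.12 for Gria4, -0.25 to 0.015 for Cacng3, -0.19 to 0.014 for Cnih2 and -0.36 to 0.084 for Cnih3, and for the interaction -0.021 to 0.23 for Gria4. The log2 ratio differences ran from -0.076 to 0.046 for Gria1 to Gria2 and -0.023 to 0.076 for Gria3 to Gria2 in zQ175:CK2a'(+/-) against WT, from -0.098 to 0.013 for Gria3 to Gria2 and -0.27 to 0.13 for Gria4 to Gria2 in zQ175 against WT, and from -0.25 to 0.17 for Gria4 to Gria2 in CK2a'(+/-) against WT. By transcript length, chosen after the data were seen, the order was Gria2, Gria1, Cnih2, Gria3, Shisa9, Cacng3 and Gria4, ranks 1 to 7. The Cacng3 to Cacng8 ratio was not run, since Cacng8 had 1 read. Cnih3, with a mean of 183 reads per library, had the widest error of the 9, and all-gene counts depended on the setting. For zQ175 against WT edgeR gave 230 genes, edgeR with no filter 451 and DESeq2, which also filters and scales in its own way, 855. In the same order the counts were 3, 85 and 123 for zQ175:CK2a'(+/-) against WT, 3, 51 and 39 for zQ175:CK2a'(+/-) against zQ175, 3, 19 and 11 for CK2a'(+/-) against WT and 1, 10 and 19 for the interaction, and for zQ175 against WT 0 when only the 2 genotypes were fitted (2337 with an unadjusted p under 0.05), 98 with the replicate block, 0 without zQ175 replicates 1 and 5 (2113 with an unadjusted p under 0.05) and 1 without the 4 libraries. Leaving out 1 mouse moved those 230 calls to between 0 (without WT replicate 3 or zQ175 replicate 5; 2367 and 2566 with an unadjusted p under 0.05) and 587 (without WT replicate 2), with 10 without WT replicate 1, 77 without zQ175 replicate 1, 133 without zQ175 replicate 3, 145 without zQ175:CK2a'(+/-) replicate 3, 150 without zQ175:CK2a'(+/-) replicate 1 and 153 without CK2a'(+/-) replicate 2.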
